A study of Rattus norvegicus with 16 samples.

Results

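The heavily bound transcripts of this study were the rat genes with at least 5 NAT10 peaks in each of 3 NAT10 RNA immunoprecipitation (RIP) libraries from primary aortic vascular smooth muscle cells. This rule selected 81 of the 808 genes with any peak. They held 1057, 999 and 912 peaks in RIP libraries 1, 2 and 3, or 46.6%, 50.1% and 51.4% of those lists and 2968 of 6034 peaks in all. All 81 were annotated as protein coding. The number of peaks chose these genes, so peak numbers, widths, positions, enrichment and recurrence are given as a description with no test.

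The 3 RIP libraries came from wild-type cells in medium with 20% serum and with no adenovirus. The series describes them as biological repeats. The RNA levels came from other cultures of the same cell type, also in medium with 20% serum, but all given an adenovirus for 48 h. Input RNA was sequenced from 3 libraries of the control adenovirus (Ad-shRNA-con, genotype wild type) and 3 libraries of the Nat10 knockdown adenovirus (Ad-shRNA-NAT10). The controls thus carried a virus that the RIP cells did not. RNA carrying N4-acetylcytidine (ac4C) was immunoprecipitated and sequenced from 3 libraries of each of the same groups. A sample of total RNA without immunoprecipitation was not analysed here.

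NAT10 is an RNA acetyltransferase that places ac4C on ribosomal RNA, transfer RNA and messenger RNA, and the mark has been linked to translation and stability of the message. It sits mainly in the nucleolus, and RIP recovers transcripts held by the protein whether or not they are acetylated. Vascular smooth muscle cells contract through actin and myosin, adhere to a matrix they secrete themselves, and lose contractile proteins when they divide and migrate.

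In the input libraries, Nat10 was at 7.69, 9.22 and 9.95 FPKM (fragments per kilobase of gene, scaled to the library's total) with the control virus, against 4.38, 3.68 and 4.58 in the knockdown, with no overlap. Its log2 change was -0.93 ± 0.19 (SE, limma, adjusted p = 0.227). The input libraries held 6417941 to 12065991 fragments. The 13 smooth muscle markers summed to 5797 to 7864 FPKM in the controls and to 1081 to 4233 in the knockdown, with 12 at or above 1 FPKM in each library and 1 listed at 0 in knockdown 1. The 7 endothelial markers summed to 0.509 to 1.08 FPKM over the 6 libraries, with 2 to 5 of them listed at 0. The 8 adventitial fibroblast markers summed to 297 to 319 FPKM in the controls and 194 to 267 in the knockdown. The 7 leukocyte markers summed to 19.8, 8.10 and 8.95 and to 13.9, 27.9 and 7.99. The fragment counts of controls 2 and 3 were much alike, with a chi-square of 5.79 per degree of freedom. The other 5 pairs within a group gave 32.4 to 96.6. Control 1 gave 44.2 with control 2 and 43.7 with control 3. Controls 2 and 3 were nearer to knockdown 3, at 28.8 and 29.7, than to control 1. Whether controls 2 and 3 came from separate cultures is not stated. Among the heavily bound transcripts, 13 had a control 1 level more than 1.5-fold outside the range of controls 2 and 3, 12 of them below it.

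Peak numbers were spread unevenly over the 81 genes. The 5 genes with most peaks held 15.5% of the peaks, the first 12 held 30.3% (900 peaks) and the first 20 held 43.6%. Dst, which encodes dystonin, a giant linker of cytoskeletal filaments, had the most: 38, 43 and 47 peaks in RIP libraries 1, 2 and 3. Macf1, its relative that joins microtubules to actin, had 31, 35 and 31. Ubr4, a giant ubiquitin ligase of the N-degron pathway, had 31, 30 and 30. Birc6, which joins ubiquitin to inhibitors and effectors of cell death, had 33, 21 and 19. The count in Ubr4 was nearly even over the lists, while that in Birc6 was highest in library 1.

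The next genes in the order were Wdfy3, a scaffold of selective autophagy, with 24, 21 and 26 peaks, and Huwe1, a HECT-type ubiquitin ligase, with 21, 25 and 24. Herc2, a further giant ubiquitin ligase, had 29, 24 and 16. Plec, the cytolinker plectin, had 24, 25 and 17. Lrp1, an endocytic receptor of the lipoprotein receptor family, had 21 peaks in every list. The gene listed as AC141959.1 had 16, 22 and 21, and the gene listed as AABR07047789.1 had 20, 16 and 20. Across the 81 genes, peak numbers in pairs of libraries had Spearman correlations of 0.82 (libraries 1 and 2), 0.74 (1 and 3) and 0.79 (2 and 3), which the rule favours because it asks for peaks in every list.

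At the edge of the rule, Camsap1 and Myo9b had 6, 5 and 5 peaks and Utrn had 8, 5 and 5. Just outside it, Kif1c had 9, 10 and 4, Nf1 had 12, 7 and 4, Trip12 had 9, 8 and 4 and Ap3d1 had 4, 7 and 9. Of the genes central to the study, Nat10 had no peak in any list. Itgb1, the integrin beta 1 chain that binds matrix, had 2, 2 and 1, and Col1a2, a chain of type I collagen, had 0, 0 and 2.

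The heavily bound transcripts were long. The exonic length used for the FPKM values, recovered from the values themselves, had a median of 7742 nt, from 2329 nt for Pdia4, a chaperone of the endoplasmic reticulum, to 24116 nt for Macf1. The median was 4757 nt for the genes with a peak in all 3 lists that missed the rule, and 2054 nt over the 13450 genes with a mean of at least 1 FPKM in the 6 input libraries. By length, 72 of the 81 lay in the top 10% of those genes, and the shortest, Pdia4, still lay at the 56.4th percentile. Peaks increased with length across the 81 genes (Spearman's rho = 0.64) and showed little relation to the control FPKM (rho = -0.06). Genes are not independent replicates, and these correlations are descriptions. They also cover only genes chosen by their number of peaks. Among all genes of at least 5000 nt, 5.59% met the rule at 1 FPKM or more in the controls and 29.1% at 50 FPKM or more.

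Per kilobase of exonic length, the mean number of peaks over the 3 lists ran from 0.471 in Utrn, the dystrophin relative utrophin, to 2.43 in Pdia4, with a median of 1.34. Short members thus reached the rule with peaks packed densely: Sf3b2, a splicing factor subunit of 3224 nt, had 8, 5 and 6 peaks, and Ipo5, a nuclear import receptor of 3328 nt, had 6 in each list. Long, well-expressed genes could also lack peaks. Of 27 genes of at least 8000 nt with at least 50 FPKM in the controls, 17 met the rule and 24 had any peak. Lama5 (11319 nt, a mean of 79.8 FPKM in the controls), a laminin chain, and Vcan (11553 nt, 59.4 FPKM), the matrix proteoglycan versican, had no peak in any list. Their relatives in the matrix Lama4 (5947 nt, 69.4 FPKM) and Lamc1 (5998 nt, 220 FPKM) had 9, 11 and 10 and 9, 8 and 8. Srrm2 (8121 nt, 156 FPKM), a splicing protein, had 1, 1 and 4.

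**Figure D1:**
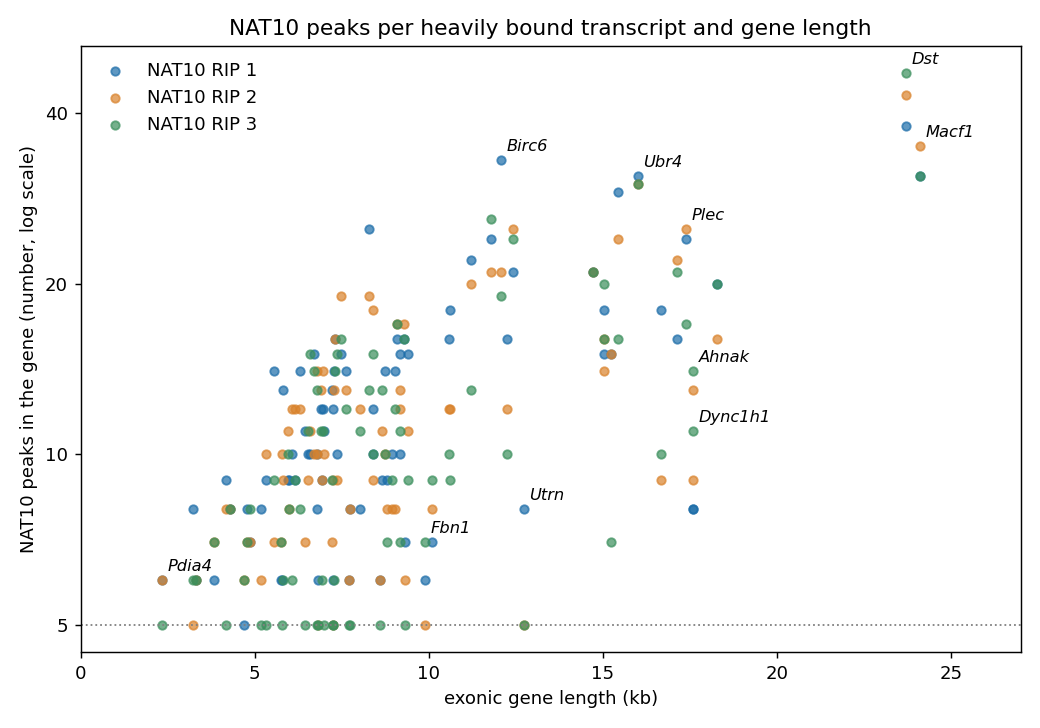
Each point is 1 of the 81 heavily bound transcripts in 1 of the 3 NAT10 RIP libraries (colours), with its exonic length in kb on the x axis and its number of NAT10 peaks on a log scale on the y axis. The dotted line marks the 5 peaks of the rule. Dst and Macf1 lie at the upper right, and Ahnak, Dync1h1 and Utrn lie low for their length.

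Peaks in these genes were made of blocks, pieces that adjoin each other once the stretches between them are removed. Exon annotation of the build was not used here. In libraries 1, 2 and 3, 38.7%, 39.6% and 39.8% of the peaks were 1 block, 31.7%, 32.2% and 34.2% were 2 blocks, and 29.6%, 28.1% and 26.0% were 3 or more. The summed block length had a median of 175 nt in each list, against 100, 100 and 100 nt in genes found in all 3 lists that missed the rule. The summed block lengths of nearly all peaks were multiples of 25 nt (1053 of 1057 in library 1).

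Some of the widest peaks were called with nearly the same extent in every list, while most wide regions were cut into several peaks. In Ahnak, which encodes a giant scaffold protein beneath the cell membrane, a single block of 6100 nt at chr1:225200908-225207007 (plus strand; positions are taken to be those of rn6, the rat build in the processing notes, where it has no stated role) was called in all 3 lists, with log2 enrichments of 1.47, 1.41 and 1.46. In Dync1h1, the heavy chain of the dynein motor, a region at chr6:134974372-134984848 (plus strand) held 2975 nt of blocks and 1 peak per list, at 1.39, 1.30 and 1.32. The peak with most blocks, 20 of them over 2900 nt, lay in Dst in library 1, in a region at chr9:37903378-37934462 (minus strand) that held 7 peaks over the 3 lists. Other wide regions were cut more often: 13 peaks made up 3675 nt in Tln1, and 14 made up 3850 nt in Fat1.

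As a share of the exonic length, peaks covered a median of 35.2%, 29.9% and 23.2% of the 81 genes in libraries 1, 2 and 3. Library 1 covered most in 67 genes, and library 3 covered least in 62. Ahnak was covered most, at 92.5%, 87.6% and 87.8%, and 84.9% of its length lay in peaks of all 3 lists. Other genes covered over large stretches were the talin gene Tln1 (82.1%, 77.5% and 55.8%), which joins integrins to actin, and the spectrin genes Sptan1 (81.5%, 71.8% and 63.4%) and Sptbn1 (79.7%, 73.3% and 55.0%), which form a lattice under the membrane. In 10 genes at least 50% of the length was covered in every list, and in 33 at least 25%.

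Coverage differed between libraries in single genes. Lrp1 was covered at 24.8%, 22.8% and 53.0%, and Flnc, which encodes the muscle filamin, at 35.2%, 36.8% and 56.6%: both were covered most in library 3. Myof, a ferlin of membrane repair, went the other way, at 48.8%, 33.0% and 9.96%. Utrn was covered least, at 8.44%, 2.55% and 2.75%, with 0.393% of its length in peaks of all 3 lists. Fbn1, the microfibril protein fibrillin, was covered at 7.33%, 5.56% and 11.9% although its RNA had a mean of 215 FPKM in the controls.

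**Figure D2:**
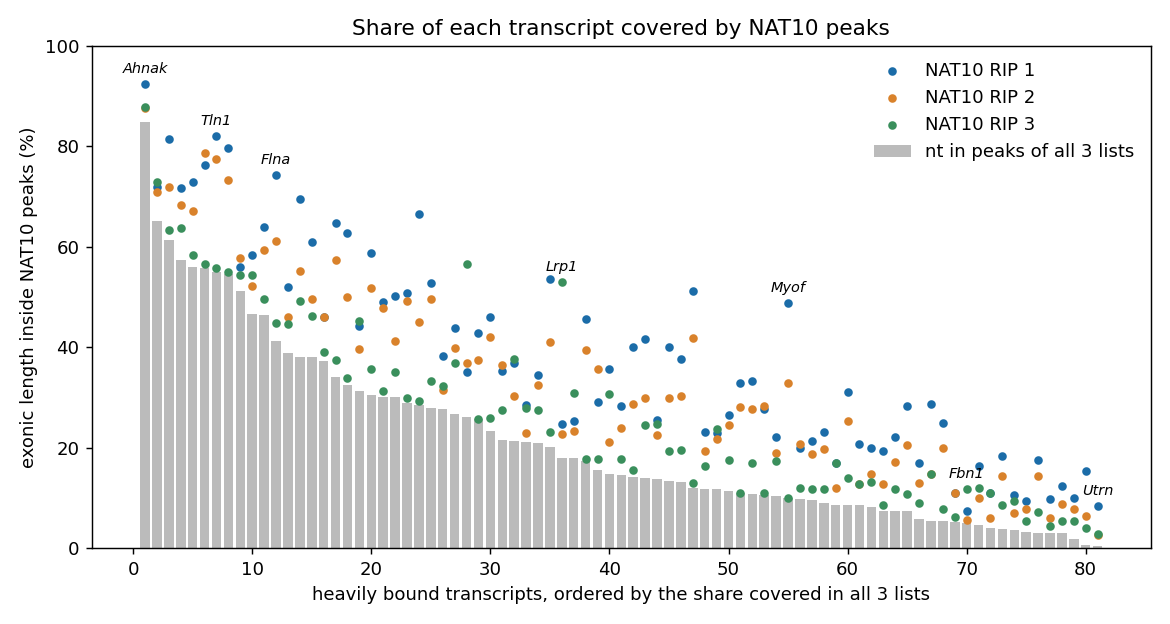
The 81 heavily bound transcripts are ordered on the x axis by the share of their exonic length, in percent on the y axis, that lay in peaks of all 3 NAT10 RIP lists (grey bars). Points give the share in each library. Ahnak stands first with 84.9% in all 3 lists and Utrn last with 0.393%.

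Neighbouring peaks of a gene were close together. The genomic gap from one peak to the next had a median of 836.5, 885.5 and 1045 nt in libraries 1, 2 and 3. It was 2850, 3450.5 and 3996 nt in genes of all 3 lists that missed the rule. A rule that asks for many peaks per gene favours short gaps. The smallest gap, 25 nt, made up 12.6%, 12.6% and 10.1% of the gaps, 23.1% over the lists were up to 100 nt, and 9.10% were over 10000 nt. The most tightly set peaks were in Chd4, a chromatin remodeling enzyme, and in Ahnak, both with a median gap of 100 nt. The most widely set were in Utrn, with a median of 17612 nt.

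Joining close neighbours lowered the counts. With peaks up to 100 nt apart joined, a setting chosen after seeing the data, 827, 780 and 732 stretches remained in the 81 genes and 73 genes still had 5 or more in every list. With peaks 25 nt apart joined, 77 did. Ahnak fell from 8, 13 and 14 peaks to 5, 6 and 7 stretches and Dst from 38, 43 and 47 to 21, 26 and 25, whereas Ipo5 kept 6 in each list.

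**Figure D3:**
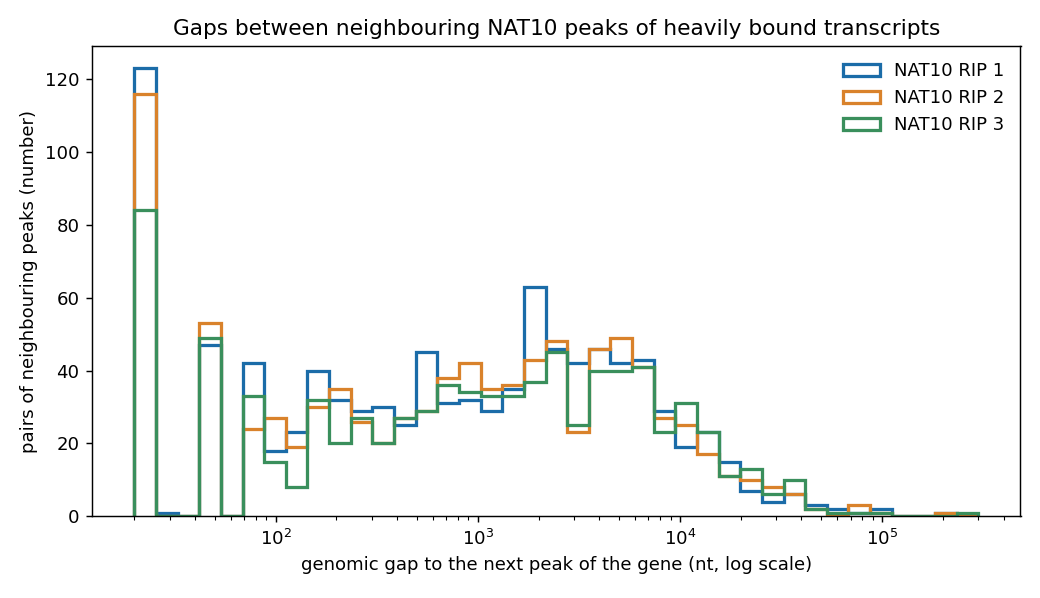
The histogram counts pairs of neighbouring NAT10 peaks of the 81 genes (y axis) by the genomic gap between them in nt on a log scale (x axis), with 1 line per RIP library. A narrow class at 25 nt stands to the left of a broad spread whose medians are 836.5, 885.5 and 1045 nt.

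Along the genes, peaks were more frequent toward the 3′ side. When the genomic stretch from a gene's first to its last peak was divided into 3 equal parts from 5′ to 3′, the parts held 26.5%, 29.2% and 44.3% of the 2968 peaks. The last part held 43.1%, 44.9% and 45.1% in libraries 1, 2 and 3. It was the fullest part in 52 of the 81 genes. Parts of genomic distance include introns, and gene starts and ends of the build were not used here, so these are positions among the peaks and not along the message.

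The pattern differed between genes. In Dst, 92 of 128 peaks lay in the middle part and 3 in the first. Macf1 was filled evenly, with 34, 30 and 33 peaks in its 3 parts. Myh10, a nonmuscle myosin heavy chain, had 28 of 39 in the last part, and Trio, an exchange factor for small GTPases, had 30 of 38. Dync1h1 had 20 of 28 in the first part, and Prpf8, the core protein of the spliceosome, had 27 of 50. Tnc, the matrix protein tenascin C, and Fndc1 also held most in the first part, with 18 of 29 and 23 of 34.

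**Figure D4:**
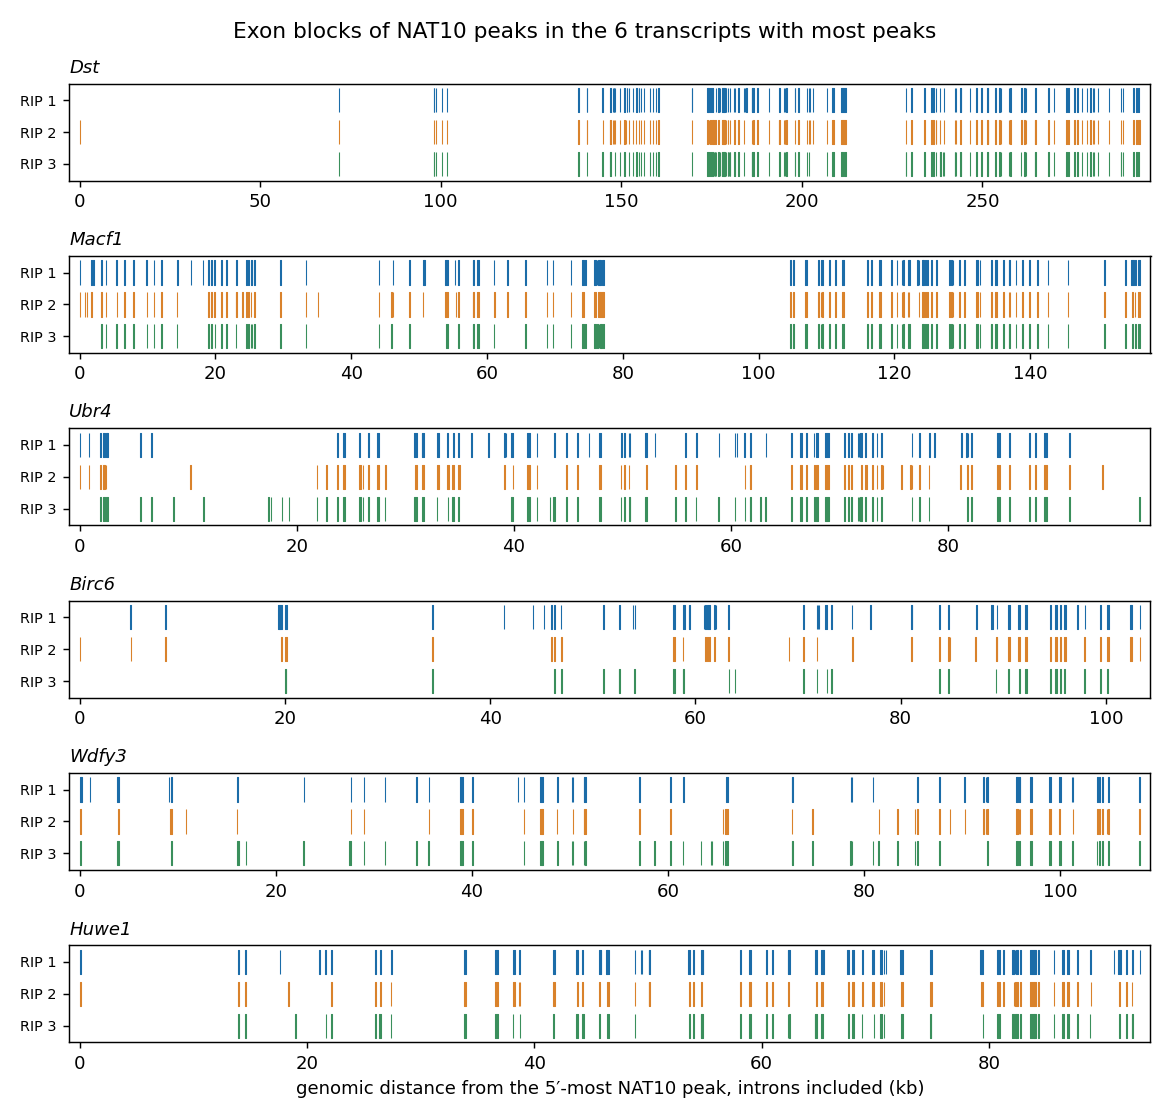
Blocks of NAT10 peaks are drawn for the 6 genes with most peaks, with 1 row per RIP library and the genomic distance from the 5′-most peak in kb, introns included, on the x axis. Blocks stand at the same places in the 3 rows for most of Dst, Macf1 and Huwe1, while Birc6 has fewer in library 3 (19 peaks) than in library 1 (33).

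Peaks were matched between lists when they lay in the same gene and their spans shared at least 1 nt. Of the peaks in heavily bound transcripts, 60.3%, 69.6% and 79.9% in libraries 1, 2 and 3 overlapped a peak of both other lists, and 16.3%, 7.61% and 8.33% overlapped none. In genes of all 3 lists that missed the rule, 35.6%, 42.1% and 50.2% overlapped both. Asking for at least 50% of the longer peak left 31.0%, 33.7% and 36.0% in the heavily bound transcripts, so the places recurred more than the exact ends did. Asking for 50% of the shorter peak left 58.1%, 67.5% and 78.2%.

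Overlapping peaks of the 3 lists joined into 1114 regions. Of these, 556 (49.9%) had a peak in all 3 lists, 234 (21.0%) in 2 and 324 (29.1%) in 1. A region's block length was taken over all of its joined peaks, so regions of more lists are wider in part by construction. The median was 300 nt for regions of 3 lists, 150 nt for 2 and 50 nt for 1. Median log2 enrichment was 1.09, 1.02 and 1.05 in the same order, so enrichment changed little with recurrence. Within single lists, wider peaks recurred more often, but a wider peak also meets the overlap of 1 nt more easily. In library 1, 20.7% of peaks of 50 to 75 nt, 45.4% of 100 to 150 nt, 73.2% of 175 to 275 nt and 94.4% of 300 nt or more were found in both others. The values for peaks of genes in all 3 lists that missed the rule were 18.8%, 37.0%, 56.9% and 73.9%, the last from 46 peaks. These width classes were set after seeing the data.

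Every region was found in all 3 lists in Dync1h1 (7 regions), in Jak1 (7), which encodes a kinase of cytokine receptors, and in Ipo5 (6). Snrnp200, a helicase of the spliceosome, Supt6h, an elongation factor, and Sptbn1 followed with 8 of 9 each. At the other end stood Utrn with 1 of 10 regions, Vps13d, a lipid transfer protein, with 3 of 22 and Cnot1, the scaffold of the deadenylase complex, with 2 of 12. Smarca4, the ATPase of a chromatin remodeling complex, Dnajc13 and Med13l each had 20.0%. The 2 Janus kinase genes differed: Jak2 had 8, 7 and 7 peaks against 8, 8 and 8 in Jak1, and 4 of its 8 regions were in all 3 lists.

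Enrichment of the peaks over their control, as deposited, had nearly the same median in each list. The median log2 enrichment of peaks in heavily bound transcripts was 1.10, 1.07 and 1.09 in libraries 1, 2 and 3, and 1.06, 1.06 and 1.08 in genes of all 3 lists that missed the rule. In the 352 regions with a single peak in each list, log2 enrichment of pairs of libraries had Pearson correlations of 0.89, 0.84 and 0.87 and a median difference of 0.06 to 0.08. No label or header names the sample that served as the control, and a control shared by the lists would enter all 3 values.

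The highest gene medians of log2 enrichment were 1.54 for AC141959.1, 1.53 for AABR07047789.1, 1.51 for RGD1307100, 1.51 for Tcof1, which encodes the nucleolar protein treacle, and 1.49 for Herc2. The lowest was 0.91, for Fbn1. Across the 81 genes the median enrichment was lower where the control FPKM was higher (Spearman's rho = -0.70). Only peaks that the caller kept enter these medians, and the part of that cut in this relation was not tested. Fn1, at a mean of 4019 FPKM, had a median of 0.93, while AABR07047789.1, at 8.80 FPKM, had 1.53. The single region with the highest mean enrichment lay in AC141959.1 at chr6:137343732-137343906 (minus strand), with log2 values of 2.70, 2.49 and 3.27. The next was in Mycbp2, a giant ubiquitin ligase, at chr15:93786460-93789224 (minus strand), with 2.51, 2.34 and 2.12.

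Grouped by function, 61 of the 81 genes fell into lists of gene families and 20 into none. The lists were chosen with earlier results of these data known. Cytoskeletal linkers, spectrins and filamins gave 13 of the 24 genes of their list with a mean of at least 1 FPKM, or 54.2%. Over all 13450 genes at that level, 0.602% were heavily bound. Long genes are the nearer background: of the 1289 of at least 5000 nt with at least 1 FPKM in the controls, 72 (5.59%) were heavily bound. At 8000 nt or more the share was 40 of 257 (15.6%). With at least 50 FPKM in the controls as well, it was 17 of 27 (63.0%). The 13 genes had 196, 216 and 208 peaks in the 3 lists. The list also counts Cltc (10, 12 and 6 peaks), which encodes the clathrin heavy chain, a vesicle coat protein and not a linker. Beside Dst, Macf1 and Plec they included Flna, the main filamin of smooth muscle and other cells, with 12, 18 and 15, and Flnc with 16, 17 and 17. The list's measured genes were themselves long, with a median of 9057.5 nt.

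Ubiquitin ligases and deubiquitinases gave 10 of 35 genes (28.6%), with 218, 190 and 168 peaks. Beside Ubr4, Birc6, Huwe1 and Herc2, the list's members included Mycbp2 and the deubiquitinase genes Usp34 (16, 17 and 16 peaks), Usp24 (16, 12 and 10) and Usp9x (16, 12 and 10). Their median length was 12174.5 nt against 5733 nt for the list's measured genes.

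The motor proteins gave 4 of 19 genes (21.1%): Myh10 (14, 13 and 12 peaks), Myo10 (12, 13 and 11), Dync1h1 (8, 9 and 11) and Myo9b. The extracellular matrix gave 6 of 37 (16.2%). They were Col12a1 (18, 12 and 9), a collagen of fibril surfaces, Lama4, Fn1 (10, 9 and 10), Tnc (13, 7 and 9), Lamc1 and Fbn1. Among receptors of the lipoprotein receptor, cadherin, Notch and plexin families 3 of 30 were heavily bound: Lrp1, the giant cadherin gene Fat1 (18, 16 and 20) and Igf2r (9, 8 and 7), the receptor that carries lysosomal enzymes.

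Nuclear functions were also present. Chromatin remodelers and histone modifiers gave 6 of 56 genes (10.7%), among them Chd4 (10, 11 and 15 peaks), Smarca4 (14, 7 and 9) and Chd3 (11, 10 and 5). Transcription and RNA processing factors gave 5 of 47 (10.6%), with Prpf8 (15, 19 and 16), Snrnp200 (10, 14 and 13) and Supt6h (10, 9 and 11) first. Prpf8 and Snrnp200 encode partners in the same small nuclear ribonucleoprotein.

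Small GTPase regulators and scaffolds gave 6 of 53 (11.3%), among them Arhgap21 (12, 14 and 11), Iqgap1 (9, 12 and 9) and Afdn (9, 10 and 5). Vesicle traffic and lipid transfer gave 4 of 45 (8.89%): Wdfy3, Vps13c (22, 20 and 13), Vps13d (15, 15 and 7) and Myof (14, 13 and 6). Large kinases gave 2 of 29, Trio (15, 12 and 11) and Cdc42bpb (11, 7 and 5). Translation factors gave 2 of 21, the transfer RNA synthetase genes Eprs (7, 7 and 8) and Iars (6, 7 and 7). Map4, a microtubule-associated protein gene with 10, 8 and 9 peaks, was the 1 of 52 genes of the nuclear pore and cell division list. None of 18 channel and pump genes and none of 19 metabolic enzyme genes met the rule, although 10 and 4 of them had a peak.

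RNA levels of the heavily bound transcripts were well above the typical gene. Their median in the control inputs was 45.9, 49.4 and 46.7 FPKM, and in the knockdown 42.9, 37.2 and 54.2. The median of all 13450 genes lay between 9.53 and 9.75 FPKM in the 6 libraries. Genes of all 3 lists that missed the rule had medians of 34.9, 37.3 and 36.9 in the controls. Their knockdown medians were 33.4, 28.0 and 39.7, so levels above the typical gene were not particular to the heavily bound transcripts. By mean control FPKM, 36 of the 81 were in the top 10% and 80 were above the median of all genes. By the product of FPKM and length, a measure of the fragments a gene gives, 77 were in the top 10% and the lowest, Jak2, lay at the 84.1th percentile. In bulk RNA, fewer cells of a type and less RNA per cell cannot be told apart.

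The highest were Fn1, the adhesive glycoprotein fibronectin, at 4491, 3791 and 3775 FPKM in the controls, Flna at 583, 756 and 770, Aebp1, a collagen-binding matrix protein gene, at 552, 472 and 463, Tnc at 182, 349 and 353, and Lrp1 at 255, 252 and 248. Tnc was lower in control 1 than in the other two. The lowest were AABR07047789.1 at 7.22, 9.79 and 9.38, Mycbp2 at 13.4, 10.7 and 11.4, Hivep2, a zinc finger factor gene, at 12.2, 13.5 and 13.6, RGD1307100 at 13.9, 13.3 and 13.2, and Vps13d at 14.7, 14.5 and 14.6. Levels of the members thus ranged over more than 2 orders of magnitude, from 8.80 to 4019 FPKM as control means.

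Knockdown of Nat10 moved none of the heavily bound transcripts past the threshold. On log2(FPKM + 1) with limma, 0 of the 81 genes passed an adjusted p of 0.05, where 0% of all 13450 genes did. With library quality weights in limma, Utrn and Tln1 passed, as 2 of 335 genes called over all. At an unadjusted threshold of 0.05, 4 were higher, against 5.53% of all genes, and 6 were lower, against 6.95%. In 11 genes every knockdown library was above every control, against 9.63% of all genes, and in 9 every one was below, against 10.9%. The median log2 change of the 81 was -0.08, beside -0.01 over all genes, and 35 were above 0 and 46 below.

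The knockdown libraries differed among themselves. The median deviation of the 81 genes from the control mean was -0.12, -0.33 and 0.20 in knockdown 1, 2 and 3 on the log2 scale, and -0.08, 0.05 and 0.03 in the controls. Knockdown 2 was the lowest of the knockdown libraries in 50 genes and knockdown 3 the highest in 60. Without knockdown 2 the median change of the members was 0.02, and without knockdown 3 it was -0.22. In the latter fit, 4 genes were above and 20 below the controls at an unadjusted p of 0.05 (limma). Over all 13450 genes, 1146 were above and 1431 below in that fit.

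Among genes with lower values, the 5 smallest p-values were those of Tln1, Utrn, Aebp1, Map4 and Myh10. Tln1 was at 152, 142 and 146 FPKM in the controls, against 79.3, 91.0 and 109 in the knockdown. Its groups did not overlap, with a log2 change of -0.66 ± 0.18 (SE; limma, adjusted p = 0.288). Utrn was at 24.2, 28.1 and 27.6 against 12.2, 14.7 and 20.6. Its groups did not overlap either, with -0.74 ± 0.21 (limma, adjusted p = 0.304).

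Aebp1 was at 552, 472 and 463 FPKM against 217, 194 and 395, the largest of these changes in size (-0.95 ± 0.30, limma, adjusted p = 0.324). Knockdown 3 was the nearest to the controls. Map4 was at 74.6, 80.4 and 80.2 against 42.0, 39.5 and 66.4 (-0.70 ± 0.22, limma, adjusted p = 0.324). Myh10 was at 76.8, 67.6 and 66.9 against 42.9, 35.6 and 61.0 (-0.62 ± 0.22, limma, adjusted p = 0.355). In each of the 5 genes all knockdown libraries lay below all controls. The summed smooth muscle and adventitial fibroblast markers of all 3 knockdown libraries also lay below those of all 3 controls, and their part in these values was not tested.

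Among the higher genes, Snrnp200 was at 25.1, 28.2 and 27.8 FPKM in the controls, against 37.7, 43.0 and 37.7 in the knockdown. The groups did not overlap, with a log2 change of 0.53 ± 0.15 (SE; limma, adjusted p = 0.295). Supt6h was at 59.3, 47.5 and 46.3 against 75.0, 86.3 and 62.8 (0.54 ± 0.19, limma, adjusted p = 0.353). Ipo5 was at 158, 128 and 141 against 174, 203 and 243 (0.53 ± 0.20, limma, adjusted p = 0.366). These 3 genes serve splicing, transcription and nuclear import.

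Of the giant ubiquitin ligase genes, Birc6 was at 25.3, 25.9 and 25.1 FPKM against 30.9, 44.2 and 33.5 (0.48 ± 0.18, limma, adjusted p = 0.369). Ubr4 was at 60.1, 50.6 and 50.7 against 66.7, 90.2 and 62.8 (0.42 ± 0.19, limma, adjusted p = 0.424). Groups overlapped in Herc2, Mycbp2 and Huwe1, with log2 changes of 0.30, 0.16 and -0.0037. In Snrnp200, Supt6h, Ipo5, Birc6 and Ubr4 every knockdown library lay above every control. For these 5 and the 5 with lower values, the adjusted p (limma) ran from 0.0453 to 0.833 over 14 alternative settings each. None changed direction, but the groups of these genes did not overlap, so leaving out a library could not change it.

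**Figure D5:**
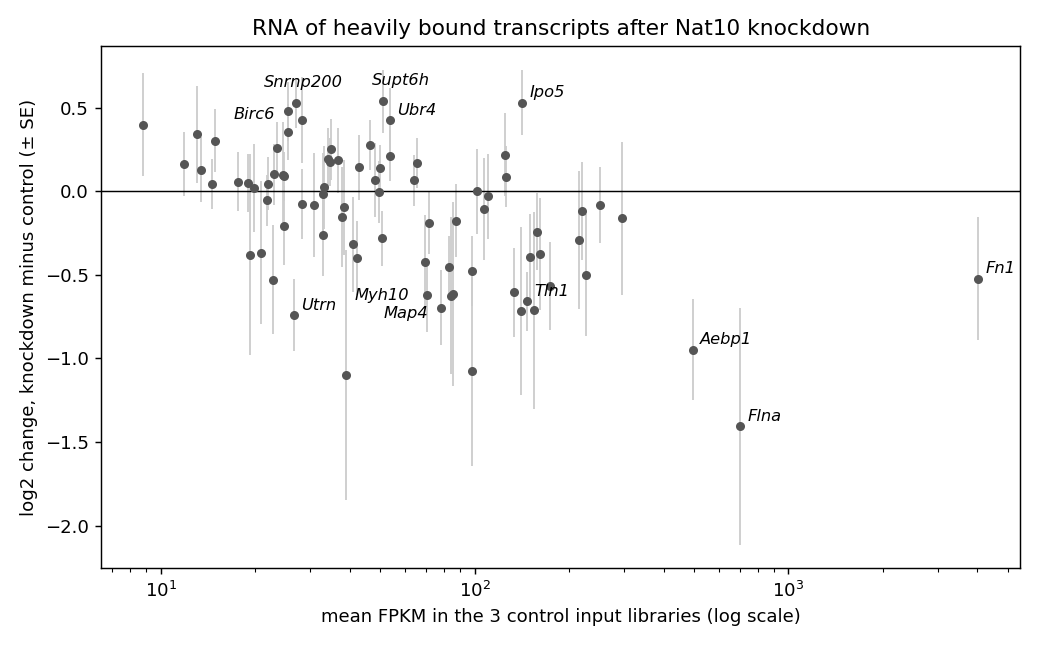
Each point is 1 of the 81 heavily bound transcripts, with its mean FPKM in the 3 control input libraries on a log x axis and its log2 change, knockdown minus control, on the y axis. Bars are the SE from limma. Aebp1 lies at -0.95 and Snrnp200 at 0.53, and no gene passed an adjusted p of 0.05.

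The genes with most peaks had values in either direction. Dst was at 98.4, 117 and 116 FPKM in the controls, against 105, 79.2 and 151 in the knockdown, so that its groups overlapped (-0.03 ± 0.26). Macf1 was at 50.2, 50.2 and 51.8 against 35.9, 41.2 and 48.4, all below the controls (-0.28 ± 0.16, limma, adjusted p = 0.516). Flna was at 583, 756 and 770 against 330, 80.5 and 675. Its log2 change of -1.41 was the lowest of the members, but with an SE of 0.71 and overlapping groups (limma, adjusted p = 0.463). Jak1 was at 67.1, 62.7 and 63.3 against 64.5, 62.8 and 75.2 (0.06 ± 0.15). For comparison, Itgb1, a gene with few peaks, was at 535, 694 and 701 against 160, 87.4 and 324 (-1.94 ± 0.45, limma, adjusted p = 0.266).

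Peaks of ac4C were also listed in many of these genes. In 2 control lists a large block of peaks carried 1 shared p-value (0.045 or 0.046), and these were left out. A peak of ac4C was then present in 37, 32 and 45 of the 81 genes in controls 1, 2 and 3 and in 42, 45 and 41 in the knockdown, so that the groups overlapped. Over all 13450 genes the shares were 18.7%, 12.2% and 20.4%, and 18.6%, 15.4% and 16.0%. Over the 6 lists 73 of the 81 genes had one at least once, against 47.6% of all genes, and 11 in every list, against 2.09%: Dst, Macf1, Ubr4, Mycbp2, Med13l, Chd3, Chd4, Eprs, Cltc, Fn1 and Tcof1. None of the 81 had one in all controls and no knockdown list, against 0.491% of all genes, and 2, Smarca4 and Map4, had one in all knockdown lists and no control list, against 0.297%. The heavily bound transcripts are longer and more abundant than the typical gene, as given above, and the part of this in the shares was not tested. Of the ac4C peaks in the 81 genes, 27 of 57, 18 of 37 and 40 of 70 touched a NAT10 peak of the gene in the controls. In the knockdown 26 of 59, 45 of 85 and 34 of 59 did. NAT10 peaks of at least 1 list covered a median of 41.7% of the exonic length of these genes. The part of that coverage in the touching counts was not tested.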

How the data were processed

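For NAT10 RIP, the authors deposited 1 peak list per library, giving each peak's position, blocks, p-value and log2 enrichment (per the file headers). No label or header names the caller or the control. Input RNA was deposited by the authors as FPKM per gene, and ac4C peaks as lists with a deposited score and p-value. The submitters' processing notes list HISAT2 2.1.0, HOMER 4.10.4, featureCounts 1.6.3, DESeq2 and cutadapt 2.5, and the build rn6 beside builds of mouse and human, with no role for each. Sequences of the regions are not printed, since the genome of the build was not used here.

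Members and gene lists were chosen with earlier results of these data known. Gene length was recovered as the number that turns a gene's FPKM into whole fragments in all 6 libraries (21401 of 21401 genes, and 1 of 500 genes with altered values). Gaps and positions are genomic. The test of RNA levels was limma (3.58.1, under R 4.3.3), fitted to log2(FPKM + 1), which understates the change of low genes, over genes with a mean of at least 1 FPKM, with Benjamini-Hochberg adjustment. The 3 libraries per group are separate samples with no stated culture, so p-values measure only the spread between them. Overlap counting and limma were tested on simulated data. Named genes were the 12 with most peaks, up to 4 per family, the 5 highest and lowest by FPKM, by share of recurrent regions and by median enrichment (highest), the 5 smallest p-values in each direction, the genes at the rule's edge, and Nat10, Itgb1 and Col1a2. Others named were chosen after their values were seen. Some genes that the rule names are not reported here. Alternatives covered the row minimum, peak strength, overlap, pseudocount, filter, scaling, weights, the replicate number and each library left out.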

Additional observations from a re-analysis of the deposited data

How the results depend on the processing

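Depth of the RIP libraries is unknown, and a gene's number of peaks depends on where the caller cut a stretch. Using only peaks with a p-value at or below their list's median left 50 genes and 1647 peaks, and only peaks at or above the median enrichment left 34 genes and 1088 peaks. Leaving out each RIP library in turn gave 82 to 113 genes and 1927 to 2497 peaks. The mean share of peaks found in every other list was 69.9%, 33.6% when 50% of the longer peak had to overlap, and 77.8% to 83.1% with 1 library left out, where only 1 other list remains to match. Minimums of 4 and 6 peaks gave 98 and 62 genes. Spacing in exon distance was not run, since gene models of the build were not used here.

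In limma, library quality weights called 335 genes over all and 2 heavily bound transcripts, Utrn (-0.94, adjusted p = 0.0453) and Tln1 (-0.74, adjusted p = 0.0458). At an unadjusted p under 0.05 they gave 9 higher and 20 lower, beside 1610 higher and 1910 lower over all 13450 genes. The weights were lowest for knockdown 2 (0.235) and knockdown 3 (0.416). Leaving out each library in turn called 0 to 1 genes over all and 0 to 0 heavily bound transcripts. It left 1 to 9 of these higher and 2 to 20 lower at an unadjusted p under 0.05, and the median change ran from -0.22 to 0.02. The 9 higher came without knockdown 2, the 20 lower without knockdown 3 and the 2 lower without knockdown 1. Fits without control 2 or without control 3 gave 1 higher and 3 lower. Over all 13450 genes, 1014 were higher without knockdown 2, 1431 lower without knockdown 3 and 678 lower without knockdown 1. Without control 2, 365 of all genes were higher and 468 lower, and without control 3, 356 and 484. The median change was 0.01 with quantile normalization. With the replicate number as a block, 0 genes were called and 1 was higher and 5 lower among the heavily bound transcripts. In that fit 500 of all genes were higher and 676 lower. Deviations of same-numbered libraries correlated at -0.21, -0.28 and 0.18, and those of control 1 and knockdown 2 at 0.41. So few libraries cannot settle whether the numbers pair the samples. Over these results, 21 alternative values left the bounds set for the main value and 74 did not. The cause of the shifts was not tested.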
